A study of Ovis aries with 18 samples.

Results

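The response of the ovine pars tuberalis (PT) transcriptome to day length was compared between an early time, after 4 weeks on a fixed photoperiod, and a late time, after 16 weeks on short photoperiod (SP) or 22 weeks on long photoperiod (LP). The question was which genes respond to day length early but not late, late but not early, or in opposite directions at these times. Samples were grouped by their labels, and 16 of the 18 libraries entered, which came from 15 of the 16 animals. All animals were neutered male Scottish Blackface sheep, and no other treatment is given in the labels. SP4 and SP16 (SP for 4 and 16 weeks) and LP22 (LP for 22 weeks) held 4 animals each, and LP4 (LP for 4 weeks) held 3, numbered 1, 2 and 4. SP4 animal 1 was the sum of its 2 libraries, and LP4 animal 2 was its repeat library alone. Left out were LP4 animal 3 and, of LP4 animal 2, the library made first, because their counts over genes correlated less with those of the rest, a choice made from expression, and what they add is given with the results.

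The PT is the sheath of pituitary tissue around the stalk that joins the hypothalamus to the gland, and its cells read day length through the nightly melatonin signal. Its thyrotrophs make thyrotropin, which is known to act on neighbouring cells of the hypothalamus and so to set local thyroid hormone levels with the season. Sheep kept for months on unchanging long days are known to drift away from the summer state, so that the length of exposure matters as well as the photoperiod. The count files list Ensembl gene IDs and do not pair them with names, so genes are given here by ID, only 4 IDs are printed, and other genes are described by counts, ranges and places in an order. For the same reason the labelled tissue and other cell types could not be checked against marker genes.

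The used libraries held between 1730773 and 4119508 counts over genes, and the animals between 1746861 and 5850281. Median correlations of a used library with the other used ones were 0.922 to 0.952 across genes, against 0.705 and 0.448 for the left-out libraries of LP4 animals 2 and 3. LP4 animal 2 still stood apart within the used set, since its 10 most abundant genes held 59.2% of its counts, against 37.6% to 47.0% in the other used libraries. Its TMM factor, the scaling that edgeR applies to library size, was 0.633, against 0.965 to 1.08 in the other animals. Nothing in the labels says which animals were handled or sequenced together. Fewer cells of a type and less RNA per cell cannot be told apart in such bulk tissue.

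Few genes showed a response that differed in size between the early and the late time. The interaction, (LP22 minus SP16) minus (LP4 minus SP4) on the log2 scale, passed a false discovery rate (FDR) of 0.05 in edgeR's quasi-likelihood test for 12 of 13446 genes, or 0.0892% of those tested. The interaction was negative for 9 genes (0.0669%), which means that the LP effect was lower late than early, and positive for 3 (0.0223%). Their mean levels ran from 8.74 to 839 CPM (counts of a gene scaled to a library of 1e+06 counts) and no animal had fewer than 4 counts for any of them. The absolute interaction was at least 0.84 on the log2 scale, against a median of 0.24 over all genes. An unadjusted p under 0.05 was found for 1407 genes, or 10.5% of those tested, with 714 negative and 693 positive.

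The 12 genes fell evenly between the early and the late response. For 6 of them LP4 differed from SP4 at an FDR under 0.05 and LP22 did not differ from SP16, and for the other 6 the late comparison passed and the early did not. These genes are termed early only or late only by the comparison that passed. The interaction shows that their effects differed between the times, not that either was absent. Among the 6 early-only genes, 5 were higher and 1 was lower in LP4 than in SP4, with absolute log2 fold changes of 0.66 to 5.25. Their absolute late log2 fold changes were 0.02 to 1.05. Among the 6 late-only genes, 2 were higher and 4 were lower in LP22 than in SP16, with absolute log2 fold changes of 0.66 to 2.33. Their absolute early log2 fold changes were 0.17 to 0.51. A late effect that misses the threshold is not shown to be absent, and 3 of the 6 early-only genes had an unadjusted late p under 0.05, as 3 of the 6 late-only genes had early. For all 6 genes with such a p at the other time, the early and late effects had opposite signs. Selection on the late minus early contrast favours this. Over all genes with such a p at both times, 52 had opposite signs and 507 the same sign.

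ENSOARG00000000618 had the most negative interaction and was higher in LP4 than in any other group. In SP4 animals 1 to 4 it stood at 2.14, 3.71, 3.70 and 1.81 CPM, and in LP4 animals 1, 2 and 4 at 99.6, 52.8 and 160.3 CPM. Every LP4 animal lay above every other animal of the set. In SP16 animals 1 to 4 it stood at 7.70, 14.6, 3.12 and 13.8 CPM, and in LP22 animals 1 to 4 at 21.1, 5.70, 13.3 and 16.3 CPM, so that the late groups overlapped. LP4 was 38.0-fold above SP4 (log2 fold change 5.25, SE 0.46, edgeR FDR 2.83e-06), whereas LP22 was 1.52-fold above SP16 (log2 fold change 0.61, SE 0.45, edgeR FDR 0.575). The interaction was −4.64 (SE 0.69, edgeR FDR 0.0173). On LP the level fell by 2.86 on the log2 scale between LP4 and LP22 (SE 0.38, edgeR FDR 0.00689), and on SP it was 3.42-fold higher in SP16 than in SP4 without passing the test (edgeR FDR 0.238).

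ENSOARG00000015051 changed sign between the times. SP4 animals 1 to 4 had 4.64, 7.42, 6.48 and 5.87 CPM, and LP4 animals 1, 2 and 4 had 13.1, 17.2 and 26.0 CPM, with no overlap. SP16 animals 1 to 4 had 13.6, 17, 8.31 and 15.4 CPM, and LP22 animals 1 to 4 had 3.83, 4.56, 8.19 and 8.35 CPM. SP16 thus resembled LP4 and LP22 resembled SP4, and only SP16 animal 3 reached into the LP22 range. The early log2 fold change was 1.66 (SE 0.30, edgeR FDR 0.00691) and the late one −1.05 (SE 0.30, edgeR FDR 0.0713), so that the late reversal missed the threshold. The interaction was −2.71 (SE 0.43, edgeR FDR 0.0206).

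ENSOARG00000023689 was lower in LP than in SP after 4 weeks, with no late difference detected. SP4 animals 1 to 4 had 17.7, 16.9, 22.2 and 20.8 CPM, and LP4 animals 1, 2 and 4 had 6.13, 9.21 and 6.72 CPM, below every other animal of the set. SP16 animals 1 to 4 had 14.5, 14.1, 11.1 and 12.8 CPM, and LP22 animals 1 to 4 had 14.9, 11.4, 15.3 and 18.9 CPM, overlapping groups whose means lay between those of the early groups, with LP22 animal 4 inside the SP4 range. The early log2 fold change was −1.38 (SE 0.21, edgeR FDR 0.00173) and the late one 0.23 (SE 0.19, edgeR FDR 0.626), with an interaction of 1.61 (SE 0.28, edgeR FDR 0.0397).

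ENSOARG00000010135 had the most positive interaction and separated the photoperiods late. SP16 animals 1 to 4 had 17.7, 16.0, 17.3 and 16.4 CPM, below every other used animal, and LP22 animals 1 to 4 had 100.6, 87.2, 64.8 and 87.9 CPM. At 4 weeks the SP animals had 32.6, 40.8, 30.5 and 32.1 CPM, and LP4 animals 1, 2 and 4 had 70.2, 21.4 and 32.7 CPM, a spread that covered the whole SP4 range. LP22 was 5.01-fold above SP16 (log2 fold change 2.33, SE 0.26, edgeR FDR 4.02e-05), and LP4 was 1.22-fold above SP4 (log2 fold change 0.29, SE 0.26, edgeR FDR 0.694). The interaction of 2.04 (SE 0.37, edgeR FDR 0.0440) ran from 1.72 without LP4 animal 2 to 2.65 without LP4 animal 1 when each animal was left out in turn, with edgeR FDRs of 0.000122 to 0.108, and the call was lost in 12 of these 15 fits.

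**Figure D1:**
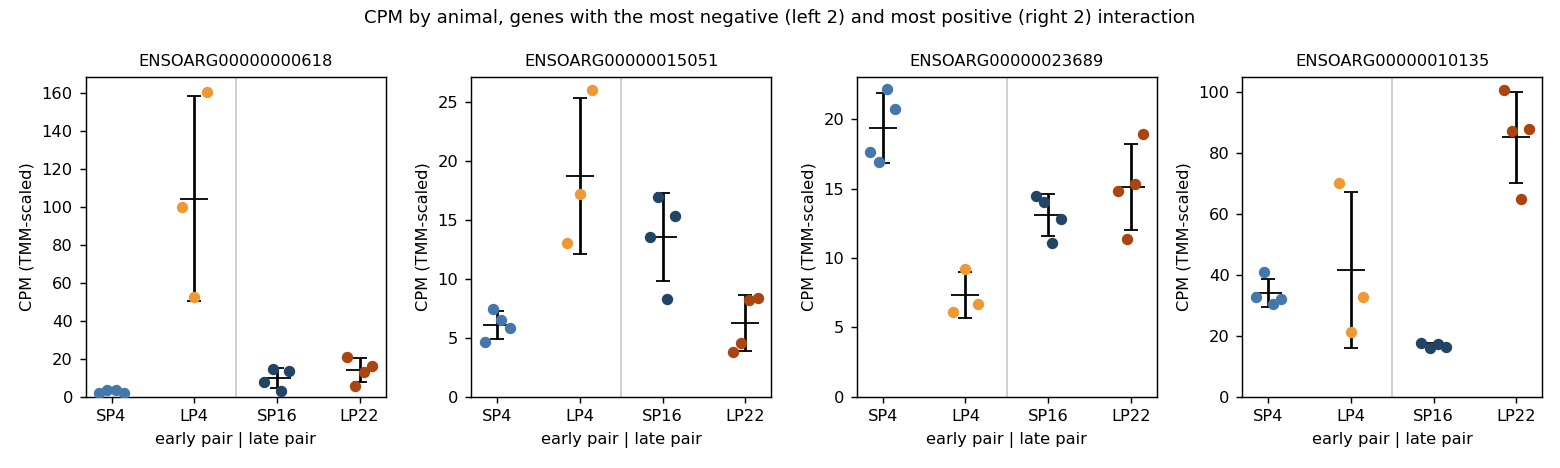
Each panel plots the CPM (TMM-scaled, vertical axis from 0) of 1 gene in every animal of SP4, LP4, SP16 and LP22, with the group mean as a line and the SD as a bar. The LP4 animals stand apart for ENSOARG00000000618 and ENSOARG00000023689, LP22 and SP4 lie low together for ENSOARG00000015051, and SP16 lies lowest for ENSOARG00000010135.

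The other 8 genes past the test lay between these 4 in the order of interaction. In order from lowest to highest, these were −2.16, −1.89, −1.40, −1.06, −0.97, −0.96, −0.84 and 0.94 on the log2 scale, with SEs between 0.14 and 0.35. The most abundant of them, with an interaction of −1.40, had 447 to 740.4 CPM in SP4 and 1015 to 1093 CPM in LP4. Late, the order was turned round, with 925 to 1292 CPM in SP16 and 482 to 837 CPM in LP22, and neither pair of groups overlapped. Its early log2 fold change was 0.85 (SE 0.18, edgeR FDR 0.0228) and its late one −0.55 (SE 0.17, edgeR FDR 0.0968). The gene with an interaction of −0.84 had 95.3 to 115.6 CPM in the used LP4 animals, above all other used animals, while SP4, SP16 and LP22 lay together at 54.9 to 72.0 CPM. The gene with an interaction of 0.94 showed the late counterpart among the used animals. It had 84.9 to 101 CPM in LP22, above all others, and 40.9 to 48.0 CPM in SP16, below all others.

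Every animal of SP16 lay above or below all animals of the other groups for 3 of the 12 genes, as did LP4 for 3, LP22 for 3 and SP4 for 0. Over all genes tested these shares were 1.02% for SP16, 0.907% for LP4, 0.863% for LP22 and 0.707% for SP4. At least 1 group lay apart in this way for 8 of the 12 genes, against 3.40% of all genes. In all 12 genes the fitted change with duration had opposite signs on SP and LP, which the contrast favours because it is also the LP duration effect minus the SP duration effect. For 8 of the 9 genes with a negative interaction the means of both SP16 and LP4 were above those of both SP4 and LP22, against 29.8% of all genes with a negative interaction. The mirror image, with SP16 and LP4 below SP4 and LP22, was found for 1 of the 3 genes with a positive interaction, against 29.3% of all such genes. The duration effect passed on its own for 1 of the 12 on SP and for 3 on LP, against 0.00744% and 0.0297% of all genes tested. On LP, 1 of all genes was higher (0.00744%) and 3 were lower (0.0223%) in LP22 than in LP4. An unadjusted p under 0.05 was found in 11 of the 12 on SP, in 11 on LP and in both for 10, against 10.7% and 8.71% of all genes. All these shares among the 12 follow in part from selection on the same contrast.

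**Figure D2:**
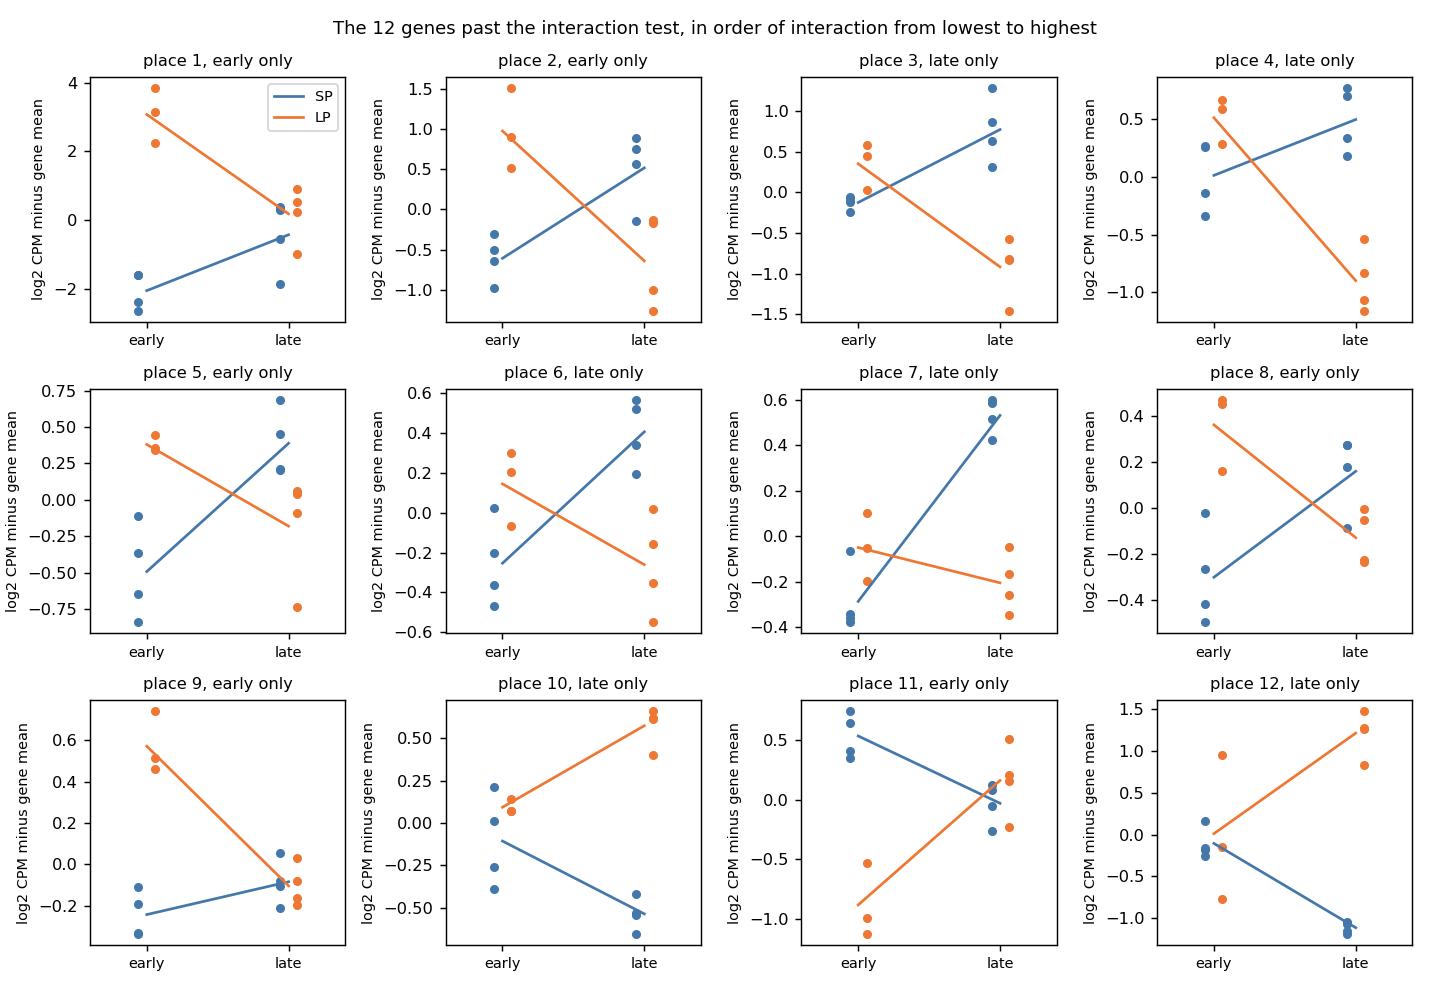
Each panel plots log2 CPM minus the gene's mean (vertical axis, separate range per panel) for every animal at the early and late time, with lines through the group means of SP (blue) and LP (orange), for the 12 genes in order of their interaction. The SP and LP lines slope in opposite directions in all 12 panels and cross in 9.

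Opposite responses were few, and none passed the test at both times. The fitted early and late effects had opposite signs for 9 of the 12 genes, but in 0 of them were both effects called. Selection on late minus early favours opposite signs. Over all genes tested, the late log2 fold change in the direction of the early effect had a median of 0.04 (quartiles −0.14 and 0.23). Fitted signs were thus often opposite in any case. Over all genes, 95 were called at both times by edgeR's quasi-likelihood test and 0 of these in opposite directions. DESeq2 called 91 at both times and likewise 0 in opposite directions. An unadjusted p under 0.05 was found for 14.3% of genes early and 16.2% late. With such a p in both comparisons, 52 genes had opposite signs, 30 higher in LP early and lower late and 22 the reverse, while 507 had the same sign. The groups failed to overlap at both times in opposite directions for 31 genes, or 0.231% of all tested, and in the same direction for 286, or 2.13%. Of the 31, 3 were among the 12 genes past the interaction test and 7 were called at either time. Over all genes tested 1.79% were called early and 3.23% late. All 31 had an unadjusted interaction p under 0.05, so these overlaps follow in part from the choice. Non-overlap at a single time was common, at 11.6% of genes early and 10.8% late. These 2 shares are not directly comparable, since non-overlap arises more easily with 3 against 4 animals early than with 4 against 4 late.

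Most genes called at only a single time did not pass the interaction test. LP4 and SP4 differed for 241 genes (1.79% of those tested), with 164 higher (1.22%) and 77 lower (0.573%) in LP. LP22 and SP16 differed for 434 (3.23%), with 233 higher (1.73%) and 201 lower (1.49%) in LP. Of the 241 genes, 146 were not called late, and 140 of these did not pass the interaction. In the direction of the early effect, the late log2 fold change of the 146 had a median of 0.20 (quartiles 0.02 and 0.39), beside a median absolute early value of 0.86. The late sign was the same for 110 of them and opposite for 36, and 46 had an unadjusted late p under 0.05 with the same sign against 3 with the opposite one. Of the 434 genes, 339 were not called early, and 333 of these did not pass the interaction. In the direction of the late effect their early log2 fold change had a median of 0.28 (quartiles 0.06 and 0.44), beside a median absolute late value of 0.80, and the sign was the same for 272 and opposite for 67. Over all genes tested the median in the direction of the late effect was 0.04. An unadjusted interaction p under 0.05 was found for 105 of the 146 genes and 188 of the 339, against 10.5% of all genes tested. Since these genes were chosen for passing at a single time, a low interaction p and a smaller value at the other time follow in part from the choice.

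The 8 genes nearest to the threshold among those called early alone had interaction FDRs of 0.0569 to 0.0931, and 7 of them were lower in LP4 than in SP4. All 8 had the opposite sign late, with late log2 fold changes of −0.22 to 0.29. The corresponding 8 genes called late alone had FDRs of 0.0529 to 0.0816. Of these, 2 were higher and 6 were lower in LP22 than in SP16, and the early sign was opposite for 6. Taking the lowest interaction p favours opposite signs in both sets. Of all 146 genes called early alone, 36 had the opposite sign late. Of all 339 called late alone, 67 had the opposite sign early.

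Genes called at both times moved in the same direction, and none was shown to differ in size between the times. The 95 genes comprised 77 that were higher and 18 that were lower in LP, and their absolute log2 fold changes had medians of 0.94 early and 1.12 late. The effect was larger early for 45 and larger late for 50. The lowest interaction FDR among them was 0.0778, and an unadjusted interaction p under 0.05 was found for 15, with 11 larger late and 4 larger early. The 4 genes with the largest mean effect were all higher in LP, by 14.8-fold to 88.4-fold early and 4.22-fold to 32.0-fold late, with interactions from −2.84 to 0.01 on the log2 scale and FDRs of 0.0895 to 0.999.

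**Figure D3:**
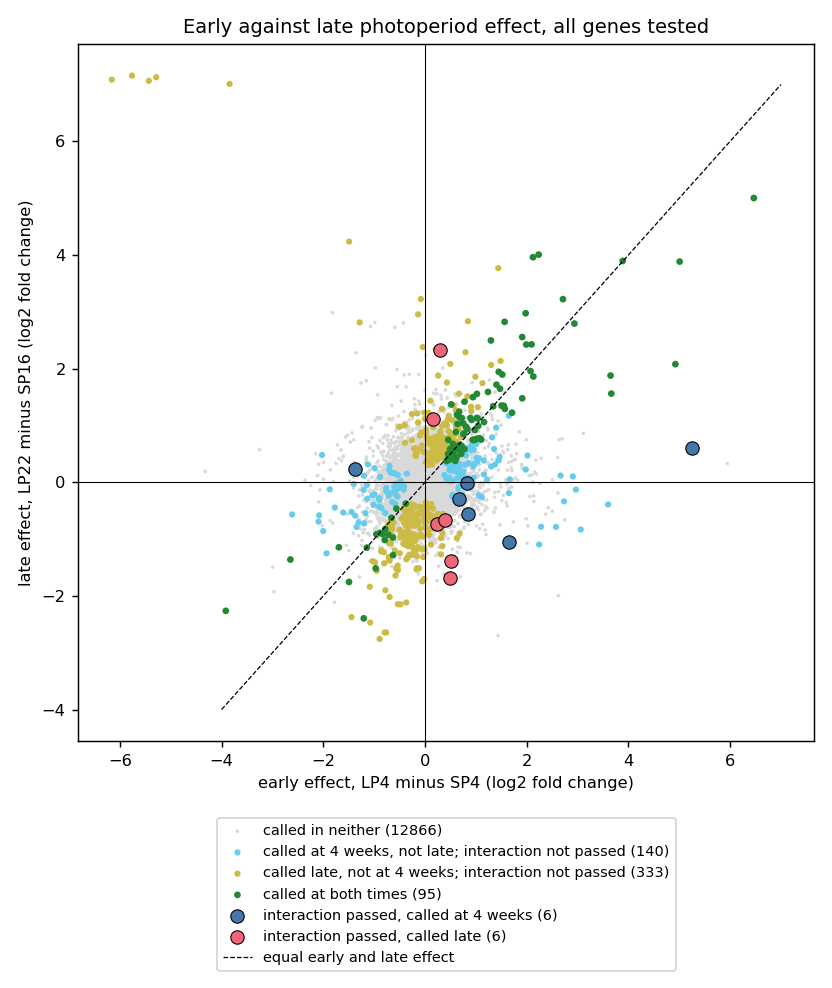
Each point is 1 of the 13446 genes, with its early log2 fold change (LP4 minus SP4) on the horizontal and its late log2 fold change (LP22 minus SP16) on the vertical axis, coloured by the tests it passed. The 95 genes called at both times lie in the upper right and lower left of the plot, the 12 genes past the interaction test lie away from the line of equal effect, and 5 genes at the upper left have large fitted effects of opposite sign that did not pass the interaction.

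The largest fitted interactions belonged to 5 genes that did not pass, picked out after their values were seen by an absolute interaction over 10 on the log2 scale. Their interactions were 10.85 to 13.24, with SEs of 2.66 to 3.14 and edgeR FDRs of 0.0881 to 0.186, and the late effect was called for all 5 (edgeR FDR 0.0195 to 0.0289). The most abundant of them had 88.2, 3555, 180.1 and 98.0 CPM in LP22 animals 1 to 4 and 1.81, 17.5, 3.46 and 6.15 CPM in SP16 animals 1 to 4. In LP4 animals 1, 2 and 4 it had 2.04, 1.68 and 1.68 CPM. SP4 animals 2 to 4 had 1.24, 0 and 4.51 CPM, where the 0 was 0 counts, but SP4 animal 1 had 258 CPM. The negative early effect therefore came from a single animal, and in that animal from a single library, since the first library held 9.24 CPM and the repeat library 347.6 CPM before TMM scaling. The first and repeat libraries differed in the same direction for the other 4 genes, at 0.578 to 9.24 CPM against 16.8 to 258.3 CPM. Without SP4 animal 1 the early log2 fold change of the most abundant gene was −0.09 and its interaction 7.22 (edgeR FDR 0.607), while its late effect stayed called (edgeR FDR 0.00186). Without LP22 animal 2 the late effect was 4.15 with an edgeR FDR of 0.118, and the late call was also lost without SP16 animal 1, 3 or 4 (edgeR FDR 0.0663, 0.0767 and 0.0634). Relative to the most abundant gene, the genes at places 2 to 5 by abundance stood at 0.746, 0.233, 0.148 and 0.0483 in SP4 animal 1 and at 0.744, 0.236, 0.129 and 0.0216 in LP22 animal 2, close for places 2 and 3 and less so for places 4 and 5. In LP22 animals 1, 3 and 4 the ratio was 0.832, 0.574 and 0.695 for place 2 and 0.304, 0.265 and 0.197 for place 3. The cause of these values was not tested.

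The number of genes past the interaction test rested on single animals. It was 0 without SP4 animal 1, where the lowest edgeR FDR was 0.0659 and 1221 genes had an unadjusted p under 0.05, and 33 without LP4 animal 2, a set that held all 12. It was 1 without SP16 animal 2 and 1 without LP22 animal 1, 2 without SP4 animal 3, 4 without SP16 animal 3, 4 without LP4 animal 1, 6 without SP16 animal 4 and 6 without LP4 animal 4. In each of the 15 fits all 12 genes kept the sign of their interaction. ENSOARG00000000618 passed in 13 of them and missed without SP4 animal 1 and SP16 animal 2 (edgeR FDR 0.0659 and 0.0524), and ENSOARG00000015051 passed in 10. ENSOARG00000023689 passed in 4 and ENSOARG00000010135 in 3, so that these calls lay at the edge of the threshold. With edgeR's robust dispersion ENSOARG00000000618 (FDR 0.0686) and ENSOARG00000010135 (FDR 0.0922) lost their calls. With all 18 libraries and 16 animals, 1 gene passed, ENSOARG00000000618, and the 12 signs were again kept.

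**Figure D4:**
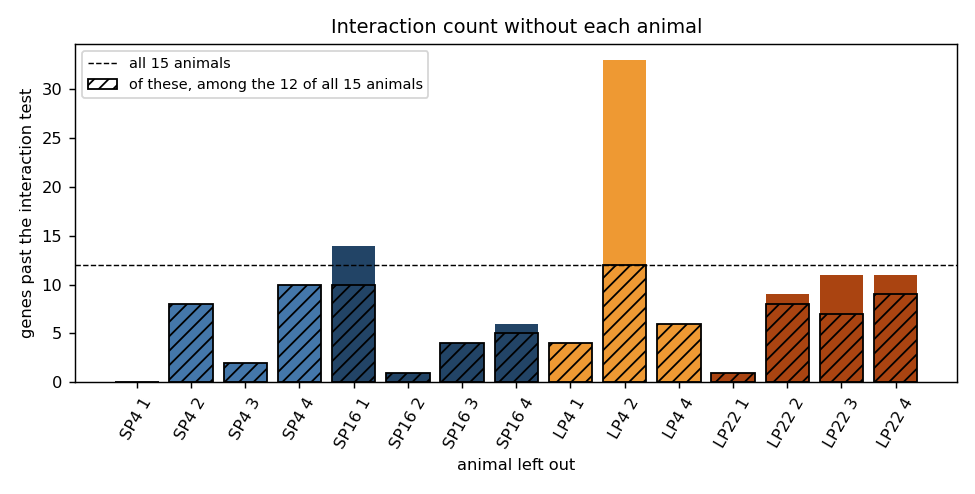
Each bar is the number of genes past the interaction test (vertical axis, from 0) when the animal named below it was left out, coloured by group, and the hatched part counts genes among the 12 found with all 15 animals (dashed line). The count is lowest, at 0, with SP4 animal 1 removed and highest, at 33, with LP4 animal 2 removed.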

How the data were processed

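Counts per gene were deposited by the authors as raw counts, 1 file per library. Per the labels' processing notes and the study's methods, reads were aligned to Oar_v3.1 with Bowtie and counted with HTSeq (versions not given in the sources used here). The 5 summary lines of each file were left out of library sizes. Genes took 15.3% to 21.3% of the reads counted to a gene, to no gene or as ambiguous in the used libraries. Libraries were grouped by label and the SP4 animal 1 pair summed. Genes with low counts were removed (filterByExpr of edgeR 4.0.16, R 4.3.3, minimum count 10, minimum total count 15). TMM scaling and 1 quasi-likelihood fit over the 4 groups gave the interaction, early, late and duration contrasts, called at a Benjamini-Hochberg FDR under 0.05 over all tested genes. CPM values are TMM-scaled unless stated. P-values judge differences between group means against the spread between animals.

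The members and lists were chosen with earlier results of these data known. The naming rule took every gene past the interaction test, up to 8 further genes called at each time alone, the 4 largest called at both, and some genes by symbol. No ID (0 of 25197) matched a symbol in the table given, so the symbol lists could not be applied and 2 IDs at each end of the order were printed. On simulated counts for 13293 genes the interaction test called 28% of genes with a log2 difference of 1 and 81% with a difference of 2. At each size 100 genes were changed, drawn from genes above a low mean count. That is more than were called in the data, which eases the FDR threshold, so the shares may be too high for these data. Of the genes left unchanged, 4 were also called. Counts were drawn with the same spread for all animals, so an animal or library that stands apart was not simulated. Alternatives covered scaling, filter, DESeq2 1.42.0, dispersion, block, library choice, threshold and each animal left out.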

Additional observations from a re-analysis of the deposited data

Results flagged for a closer look

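The early and late responses differed by the interaction test itself for 12 genes. On the log2 scale the differences were −4.64 for ENSOARG00000000618, −2.71 for ENSOARG00000015051, then −2.16, −1.89, −1.40, −1.06, −0.97, −0.96, −0.84 and 0.94, followed by 1.61 for ENSOARG00000023689 and 2.04 for ENSOARG00000010135. In the gene with a difference of −0.97, SP4 animal 4 had 46.5 CPM and stood far from the other SP4 animals, at 37.5 to 38.4 CPM. It was the only such value in 36 groups of 4 animals examined, where chance at 1 in 20 gives about 1.8.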

How the results depend on the processing

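With all 15 animals, 12 genes passed the interaction, 241 the early, 434 the late, 1 the SP duration and 4 the LP duration comparison, 95 passed early and late, and the 12 held 6 early only, 6 late only and 9 with opposite signs. Over the 15 fits that each left out 1 animal, these counts ran from 0 to 33, 133 to 277, 261 to 580, 1 to 42, 1 to 36, 57 to 100, 0 to 12, 0 to 16 and 0 to 24. DESeq2 called 35 interactions, 33 SP duration and 14 LP duration genes, with 13 early only, 17 late only and 23 of opposite sign. Without the filter these were 38, 31, 32, 14, 22 and 28. Robust dispersion gave 20 interactions (9 of the 12 among them, without ENSOARG00000000618 and ENSOARG00000010135), 12 late only, 15 of opposite sign and 2 SP duration genes. The first library of SP4 animal 1 alone gave 7 interactions, 4 early only, 3 late only, 5 opposite and 0 SP duration genes. Its repeat library alone gave 6, 3, 3 and 5, with 2 LP duration genes. Both libraries of LP4 animal 2 summed gave 23 interactions, 15 late only, 17 opposite and 4 SP duration genes. All 18 libraries gave 1 interaction, 27 early, 36 late, 8 at both times, 0 SP and 2 LP duration genes, 1 early only, 0 late only and 0 opposite. Fitting only the 2 groups compared gave 96 early genes and 47 at both times. Asking for a log2 fold change of at least 1 left 8 interactions, 100 early and 171 late genes. At an FDR under 0.1, 15 were early only, 23 late only and 31 of opposite sign. The cause of these moves was not tested, beyond the fewer genes, animals or libraries that some settings hold. The interactions of the 4 genes printed by ID kept their sign under every setting run.

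Animals with the same number did not deviate together (mean correlation −0.0102 over 21 pairs, and 4 of 15 animals correlated best with their own number), so the numbers were not taken as pairs. With the replicate block, 7 interactions and 158 early genes passed, with 2 early only and 4 of opposite sign. Of the 7, 5 were among the 12, and ENSOARG00000023689 did not pass (edgeR FDR 0.0833).

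At this depth 13446 of 25197 listed IDs passed the filter. Simulated differences of 1 on the log2 scale were mostly missed at this depth and number of animals, which were not varied separately. The late time, unlike the early time, was not matched between photoperiods, so duration and photoperiod cannot be told apart in the late comparison.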

Other observations

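The libraries left out of the comparisons were read for the same 12 genes. The first library of LP4 animal 2 lay within the range of the used LP4 animals for 4 genes and LP4 animal 3 for 3. ENSOARG00000000618 had 88.1 and 146 CPM in them, inside the LP4 range, and ENSOARG00000015051 had 14.2 and 23.7 CPM, also inside. ENSOARG00000010135 had 10.7 and 13.8 CPM, below every used animal of all groups, SP16 (16.0 to 17.7 CPM) among them. ENSOARG00000023689 had 8.89 CPM in the former and 0.483 CPM, or 2 counts, in the latter. The gene with an interaction of −0.84 had 8.89 and 11.3 CPM in them, against 95.3 to 115.6 CPM in the used LP4 animals. Both values also lay below SP4, at 54.9 to 64.1 CPM. The gene with an interaction of 0.94 had 24.9 and 32.6 CPM in them, against 67.4 to 70.9 CPM in the used LP4 animals. Both values also lay below SP16, at 40.9 to 48.0 CPM. The late-only gene at −1.06 had 127 and 401 CPM, above used LP4 (71.6 to 92.3 CPM) and SP4 (54.1 to 76.3 CPM). The late-only gene at −0.97 had 71.2 and 219 CPM, above used LP4 (42.4 to 52.3 CPM) and SP4 (37.5 to 46.5 CPM). Both libraries also lay above the used LP4 range for the genes at −1.89, −1.40 and −0.96. Genes took 31.0% and 52.6% of the reads counted to a gene, to no gene or as ambiguous in the left-out libraries.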
